A study of Mus musculus with 45 samples.

Results

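A set of 10 genes that mark the choroid plexus was followed through 45 samples of mouse brain. The rule was a fixed list of 10 genes (Ttr, Kl, Folr1, Clic6, Kcnj13, Aqp1, Enpp2, Cldn2, Otx2 and Sostdc1), and each was found as 1 Ensembl row among the 18135 rows of the deposited expression values. The choroid plexus is a sheet of epithelial cells over a vascular core that hangs into the ventricles of the brain and secretes cerebrospinal fluid. Its epithelium makes the thyroid hormone carrier transthyretin at very high levels, and the plexus of the lateral ventricle lies against the hippocampus and beside the striatum. A sample of either region can therefore hold a varying amount of it, and in bulk RNA fewer cells of a type cannot be told apart from less RNA per cell.

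The study sequenced mRNA of the hippocampus, the striatum and the prefrontal cortex, called cortex here, of male C57BL/6J mice at 13 weeks of age. Mice were WT, Shank3-HT or Shank3-HM, with 5 samples per genotype and region, and the mutant Shank3 gene lacks exons 14–16 (heterozygous in Shank3-HT and homozygous in Shank3-HM mice, which the labels call knock-out). Samples of different regions may come from the same mice, which the labels do not state. Shank3 itself was between 11309 and 12740 normalized counts in striatal WT samples, between 7959 and 9323 in Shank3-HT samples and between 4569 and 6242 in Shank3-HM samples, and the genotypes were ordered in the same way without overlap in the cortex and hippocampus. Values are DESeq2 normalized counts as deposited. Their sums ranged from 26118607 to 29568983 per sample and are not sequencing depth, which is unknown. Striatum Shank3-HT replicate 5 stood apart from its group in several of the genes, hippocampus WT replicate 4 held the highest level of every gene in its region, and cortex Shank3-HM replicate 2 had the highest Kl and Clic6 of the cortex. These 3 samples were picked after their values were seen, and the values that moved most without them are given beside the results.

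Ttr varied more than any other member. In the hippocampus, it was 5719, 2097, 31385, 113040 and 32301 normalized counts in the 5 WT samples, 987, 30349, 591, 1181 and 28261 in the 5 Shank3-HT samples, and 39190, 39200, 55089, 16338 and 5006 in the 5 Shank3-HM samples. The values spread without a gap that follows genotype, and the lowest and highest samples of the region were a Shank3-HT and a WT sample. In the striatum, Ttr was 8.43, 2.07, 1.93, 840 and 24.2 in WT, 7.15, 839, 199, 41.8 and 62259 in Shank3-HT, and 4.35, 355, 636, 11.9 and 13.0 in Shank3-HM samples. Striatum Shank3-HT replicate 5 thus lay within the hippocampal range, above all hippocampal samples except WT replicate 4, while the other 14 striatal samples stayed at or below 840. In the cortex, Ttr was 6.19, 1.0, 21.7, 92.4 and 32.8 in WT, 3.94, 6.96, 932, 6.62 and 104 in Shank3-HT, and 9.36, 94.4, 165, 11.1 and 2.81 in Shank3-HM samples. Cortex Shank3-HT replicate 3, at 932, was the single cortical sample above the lowest hippocampal one.

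The median of Ttr was 28261 normalized counts in the hippocampus, 24.2 in the striatum and 11.1 in the cortex. At its highest, in hippocampus WT replicate 4, Ttr took 0.433% of all normalized counts, and in striatum Shank3-HT replicate 5 it took 0.219%. The 10 genes together took 0.0216% to 0.704% of the total in hippocampal samples, against 0.0173% to 0.0256% in the cortex, where most of it was Enpp2. The SD of Ttr within groups was 2.23 on the log2 scale in the hippocampus, 3.88 in the striatum and 2.61 in the cortex, where the median gene had 0.156, 0.160 and 0.161. In the striatum, Ttr had the fourth largest within-group SD (rank 4 of 16482 genes), and in the hippocampus it ranked 39 of 16571.

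**Figure D1:**
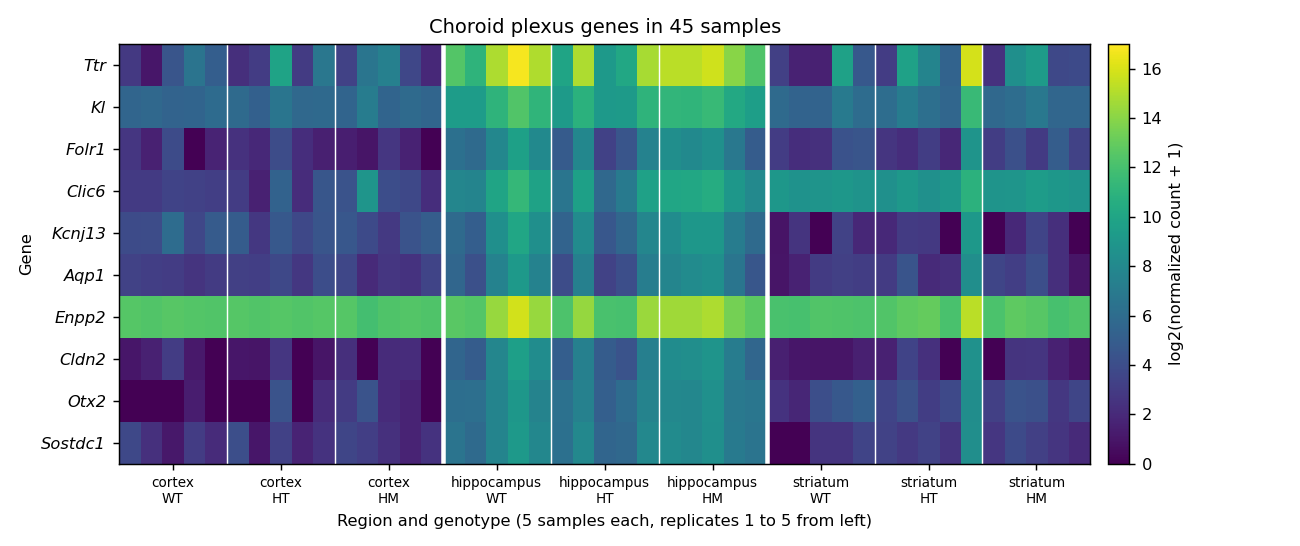
Normalized counts of the 10 choroid plexus genes, as log2(normalized count + 1), in each of the 45 samples (columns, replicates 1 to 5 within each region and genotype from the left). Columns of the hippocampus brighten and darken as blocks over all 10 rows, and among the striatal columns Shank3-HT replicate 5 alone does so, with Ttr at 62259; Clic6 is bright in the whole striatum, and Enpp2 in every sample.

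Among the secreted members, Enpp2 (autotaxin, the enzyme that makes lysophosphatidic acid, chr15:54838901-54952892 in GRCm38) was abundant everywhere. It was 6303, 5588, 21702, 58697 and 20995 normalized counts in hippocampal WT samples, 4833, 20312, 4502, 4340 and 22054 in Shank3-HT samples, and 24513, 24000, 30340, 11258 and 6584 in Shank3-HM samples. The samples that were high in Ttr were the ones high in Enpp2, while those with little Ttr fell to the range of the other regions, 3919 to 6050 in the cortex and 4279 to 7965 in the 14 striatal samples other than Shank3-HT replicate 5. That sample held 38085. Enpp2 is also made by oligodendrocytes, and the summed level of 12 oligodendrocyte markers was highest in the striatal samples with the highest Enpp2 of those 14, 361881 in Shank3-HT replicate 3 (Enpp2 of 7965) and 330730 in Shank3-HM replicate 2 (Enpp2 of 7031), where the part of these cells in Enpp2 was not tested.

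Kl (Klotho, a membrane protein that is also shed into cerebrospinal fluid and acts as coreceptor for FGF23, chr5:150952607-150993817) followed the same samples from a higher floor. Hippocampal Kl was 681, 683, 2146, 5248 and 2236 normalized counts in WT, 608, 1871, 595, 628 and 2081 in Shank3-HT, and 2293, 2269, 2797, 1235 and 728 in Shank3-HM samples. No hippocampal sample fell below 595, and no cortical sample rose above 138, so the 2 regions did not overlap. In the striatum, Kl was 41.3 to 141 in 14 samples and 2971 in Shank3-HT replicate 5. Sostdc1, a secreted antagonist of BMP and Wnt signals, was 46.7 to 554 in the hippocampus, 1.01 to 15.9 in the cortex, and 0 to 13.0 in the striatum beside the 334 of Shank3-HT replicate 5.

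Among the channels and transporters, Clic6 (a chloride intracellular channel family protein, chr16:92485736-92541243) had a pattern of its own in the striatum. It was 220, 202, 955, 2509 and 868 normalized counts in hippocampal WT samples, 94.6, 814, 53.6, 125 and 839 in Shank3-HT samples, and 1079, 1176, 1505, 505 and 252.4 in Shank3-HM samples. The 14 striatal samples other than Shank3-HT replicate 5 all lay between 361 and 658, a narrow band far above the cortex, with Ttr anywhere from 1.93 to 840. Cortical values were 6.30, 6.55, 9.73, 8.72 and 7.71 in WT, 7.24, 2.01, 40, 3.50 and 22.5 in Shank3-HT, and 19.6, 457, 15.3, 11.9 and 3.66 in Shank3-HM samples. The 457 of cortex Shank3-HM replicate 2 lay inside the striatal range. In that sample Kl was also the highest of the cortex (138), Enpp2 the lowest (3919), and the sum of 12 neuronal markers was 276763, against 352131 to 399894 in the other 14 cortical samples. The part of these differences in its Clic6 was not tested.

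Kcnj13 (the inward rectifier potassium channel Kir7.1 of the apical epithelial membrane, chr1:87386363-87394729) was the member with the largest shortfall of the striatum against the cortex, with a median of 2.92 against 19.8. In the cortex, it was 13.9, 14.3, 62.8, 11.5 and 29.0 normalized counts in WT, 29.3, 5.80, 24.2, 12.0 and 21.0 in Shank3-HT, and 23.1, 13.4, 6.20, 19.8 and 30.8 in Shank3-HM samples. In the striatum, 14 samples held 0 to 10.2 and Shank3-HT replicate 5 held 536, and in the hippocampus the range was 23.4 to 1079. The highest cortical value, 62.8, stood in WT replicate 3, where Ttr was 21.7 and Otx2 was listed at 0, while Cldn2 (7.03) was the highest of the cortex and Folr1 (13.9) was above its cortical median of 2.26. Kcnj13 lies on the opposite strand within Gigyf2. The libraries kept the strand, but whether quantification used it is not given in the sources used here, so reads of the 2 genes may not be separated. The same limit holds for Folr1, which overlaps Anapc15 on the opposite strand, and for Enpp2, which overlaps Gm26684.

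Aqp1, the water channel of the apical membrane, was 9.22 to 599 normalized counts in the hippocampus, 2.99 to 15 in the cortex, and 0.908 to 20.7 in the striatum beside the 337 of Shank3-HT replicate 5. Folr1, the folate receptor that carries folate into cerebrospinal fluid, was 8.83 to 804 in the hippocampus, 0 to 14.4 in the cortex, and 2.72 to 30.8 in the striatum beside 453. The lowest hippocampal sample for both genes was Shank3-HT replicate 3, which was also the lowest for Ttr. Cldn2, the claudin that forms cation and water pores in the tight junctions of this leaky epithelium, was 19.8 to 783 in the hippocampus, 0 to 7.03 in the cortex, and 0 to 9.85 in the striatum beside 395. Otx2, the homeodomain transcription factor that the plexus needs to form and that it secretes, was 34.7 to 520 in the hippocampus, 0 to 19.5 in the cortex, where 8 of 15 samples were listed at 0, and 2.52 to 36.7 in the striatum beside 329.

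**Figure D2:**
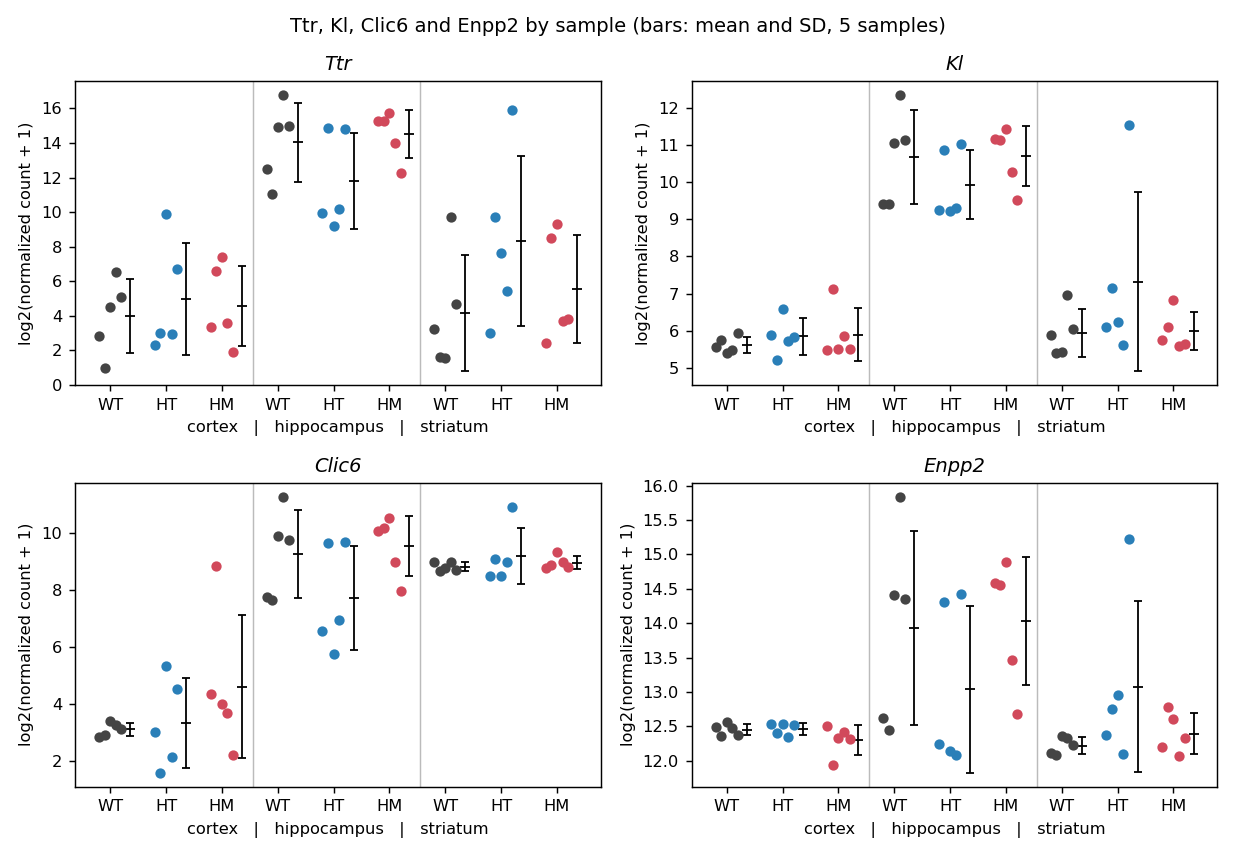
log2(normalized count + 1) of Ttr, Kl, Clic6 and Enpp2 in each sample (points, 5 per group; black marks are the group mean and SD) by region and genotype. Hippocampal points spread widely within every genotype for all 4 genes, Kl shows no overlap between hippocampus and cortex, and Clic6 is at 361 to 658 normalized counts in 14 striatal samples.

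Per kilobase of the principal transcript, the median hippocampal level was 23829 normalized counts for Ttr, 6563 for Enpp2, 366 for Kl, 217 for Clic6, 172 for Kcnj13, 140 for Folr1, 114 for Sostdc1, 67.8 for Otx2, 56.3 for Aqp1 and 52.5 for Cldn2. Ttr and Enpp2 were thus the most abundant of the 10 on this scale too, though their hippocampal ranges overlapped (499 to 95312 for Ttr and 1402 to 18965 for Enpp2). Enpp2 and Kl, the next neighbours, did not overlap (the lowest Enpp2 was 1402 and the highest Kl 1025), the ranges of the remaining neighbours did, and the order was not tested.

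RefSeq promoter windows (GRCm38.p6, 250 bases before to 50 after the annotated start) were at hand for 5 members, Kcnj13, Kl, Aqp1, Otx2 (4 windows) and Cldn2. They are shown for Kcnj13, Aqp1 and Cldn2, as channel and junction genes that rose together with Ttr in the hippocampus. Matches to 3 motifs on either strand are in capitals. One is TAATCC, the core of bicoid-type homeodomain sites such as those of OTX factors. The second, the forkhead core, is TAAACA. The last is the TATA box, searched as TATAAA. The windows, each 5′ to 3′ on the strand of the gene from 250 bases before to 30 after its start, are chr1:87394700-87394979 (minus strand), chr6:55336049-55336328 (plus strand) and chrX:139800558-139800837 (plus strand).
Kcnj13: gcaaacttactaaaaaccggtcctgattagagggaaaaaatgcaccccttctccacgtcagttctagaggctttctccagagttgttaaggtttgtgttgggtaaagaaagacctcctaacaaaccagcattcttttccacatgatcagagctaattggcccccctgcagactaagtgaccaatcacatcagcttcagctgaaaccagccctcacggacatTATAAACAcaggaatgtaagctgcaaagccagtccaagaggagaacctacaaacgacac
Aqp1: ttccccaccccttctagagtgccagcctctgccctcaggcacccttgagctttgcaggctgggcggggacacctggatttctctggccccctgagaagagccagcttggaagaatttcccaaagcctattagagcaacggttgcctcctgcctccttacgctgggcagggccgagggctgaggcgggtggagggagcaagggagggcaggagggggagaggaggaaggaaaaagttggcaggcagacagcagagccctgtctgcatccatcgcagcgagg
Cldn2: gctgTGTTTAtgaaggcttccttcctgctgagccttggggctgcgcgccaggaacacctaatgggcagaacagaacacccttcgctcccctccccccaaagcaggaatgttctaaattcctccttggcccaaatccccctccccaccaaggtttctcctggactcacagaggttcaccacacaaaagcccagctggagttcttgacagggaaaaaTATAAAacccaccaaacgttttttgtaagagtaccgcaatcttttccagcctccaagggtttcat
In Kcnj13, a TATA box 29 bases before the start overlapped a forkhead core at 27 bases. In Cldn2, a TATA box stood 35 bases before the start and a forkhead core, as its reverse complement, 246 bases before it. Aqp1 and Kl held none of the 3 motifs. Of the 4 Otx2 windows, 1 held TATAAA and another TAATCC. Among all 32851 windows, TAATCC was found in 7.06%, TAAACA in 13.4% and TATAAA in 13.6%, so that matches of this kind are common.

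The first comparison asked how the 3 regions differ. In limma fits of log2(normalized count + 1) over all 45 samples, with p values adjusted by the Benjamini–Hochberg method over 16708 genes and a threshold of 0.05, the hippocampus was higher than the cortex for each of the 5 members with a cortical mean of at least 10 normalized counts (Ttr, Kl, Clic6, Kcnj13 and Enpp2), where 64.6% of all genes tested differed between these regions in either direction. Of these, Ttr had the largest difference, 8.95 ± 1.02 on the log2 scale (SE, n = 15 per region, adjusted p = 3.29e-10), and Clic6 had 5.16 ± 0.47, Kl 4.65 ± 0.37 and Kcnj13 3.02 ± 0.59. Enpp2 had the smallest, 1.261 ± 0.28 (adjusted p = 0.000134). The other 5 members entered the fit only through their level outside the cortex, so their differences are a description, 5.87 for Otx2, 5.65 for Cldn2, 4.93 for Folr1, 4.70 for Sostdc1 and 3.31 for Aqp1. Those of Otx2 and Cldn2 depend on the pseudocount, since 8 and 4 cortical samples were listed at 0, and they were 7.77 and 6.92 with a pseudocount of 0.1. Among the 5 members with a cortical mean of at least 10, Kl alone had no overlap between the 15 hippocampal and 15 cortical samples, where 16.2% of genes showed no overlap. Cldn2, Otx2 and Sostdc1 did not overlap either, which is a description for the same reason as their differences.

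Kcnj13, Aqp1, Cldn2 and Sostdc1 had a striatal mean of at least 10 only through Shank3-HT replicate 5. Of the other 6 members, 5 were lower in the striatum than in the hippocampus (72.0% of all genes differed in either direction), with Ttr at −7.44 ± 1.02 (adjusted p = 2.00e-08). The difference of Kcnj13, −5.04 ± 0.59, is a description. Clic6 did not pass the test, with 0.14 ± 0.47 (95% interval −0.80 to 1.08, adjusted p = 0.795). No member was free of overlap between these regions, where 24.7% of genes were. For Kl, Kcnj13, Cldn2 and Sostdc1, striatum Shank3-HT replicate 5 was the sole striatal sample within the hippocampal range, while the other 6 members overlapped without it too.

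The striatum and cortex lay closer together. Clic6 was higher in the striatum by 5.31 ± 0.47 (adjusted p = 1.24e-13). Of all genes, 73.7% differed between these regions in either direction. Kcnj13, whose striatal mean reached 10 only through Shank3-HT replicate 5, had −2.02 ± 0.59, given as a description. Otx2 and Folr1 had a cortical mean under 10 and entered through the other regions, so their differences, 2.68 ± 0.47 (4.47 with a pseudocount of 0.1) and 1.67 ± 0.55, are one too. Ttr, Kl and Enpp2 did not pass the test, with Ttr at 1.51 ± 1.02 (95% interval −0.56 to 3.57, adjusted p = 0.182). Aqp1, Cldn2 and Sostdc1 had a cortical mean under 10, and a striatal mean of 10 only through Shank3-HT replicate 5. Their differences, −0.0028, 0.72 and 0.35, are therefore a description. None of the 10 was free of overlap between striatum and cortex, where 25.1% of all genes were. In WT mice alone, the difference of Folr1 was 1.32 and, unlike in all mice, did not pass (limma, adjusted p = 0.236). The order of the regions for Ttr had the hippocampus first, and the difference between striatum and cortex did not pass in this fit but passed with the replicate number as a block (1.51, adjusted p = 0.0436). Without the block, the estimate was 0.87 when striatum Shank3-HT replicate 5 was left out (adjusted p = 0.402) and 0.16 in WT mice alone (adjusted p = 0.946), and the blocked fit was not run without that sample.

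The next comparison asked how the 10 genes moved together within a region. Across the 15 hippocampal samples, the 45 pairs of members had Pearson's r of 0.942 to 0.996 with a median of 0.967 on the log2 scale. With Ttr, r was 0.99 for Clic6, 0.98 for Aqp1, 0.97 for Folr1, 0.96 for Enpp2, Kcnj13, Sostdc1 and Cldn2, 0.95 for Kl and 0.94 for Otx2. All 9 passed a permutation test with 100000 resamples (adjusted p = 0.00331 for each, the smallest these permutations could give, over 16570 genes), as did 0.688% of genes tested. Spearman's rho with Ttr was 0.921 to 0.996 (adjusted p of 0.00291 to 0.00637), and the median r over all genes was −0.02. Without the 2 samples farthest from the median of Ttr (Shank3-HT replicates 1 and 3), r was 0.943 to 0.984, and as deviations from the genotype means it was 0.932 to 0.987. Without WT replicate 4, the lowest r was 0.941, and the number of genes called fell from 114 to 62, with all 9 members among them.

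Genes outside the 10 with the closest pattern to Ttr in the hippocampus were Mfrp (r = 0.99), Slc4a5 (r = 0.99), a sodium bicarbonate cotransporter, F5 (r = 0.98), coagulation factor V, Kcne2 (r = 0.98), a potassium channel subunit, and Steap1 (r = 0.97), a metalloreductase family protein. All 5 belong to a list of 38 further choroid plexus genes. Of these 38, 25 were called with a positive r and 0 with a negative one, with a median r of 0.90. Of the 114 genes called, 110 were positive and 4 negative, and 76 of the positive ones were in neither list.

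The 5 most abundant of those 38 genes followed Ttr less closely, with r between 0.48 and 0.91. Ace, the angiotensin converting enzyme, had r = 0.88 with Ttr (adjusted p = 0.00975), Car12, a membrane carbonic anhydrase, r = 0.91 (adjusted p = 0.00331), and Vat1l r = 0.82 (adjusted p = 0.0212) in the hippocampus. Atp2b3, a plasma membrane calcium pump, had r = 0.71 (adjusted p = 0.168), and Igf2, a growth factor also made by the meninges, r = 0.48 (adjusted p = 0.641), so neither passed. Between regions, 31 of the 36 of the list that were tested were higher in the hippocampus than in the cortex and 0 lower, with a median of 1.43 on the log2 scale, where 64.6% of all genes differed in either direction. Only 29 of the 38 had a cortical mean of at least 10 normalized counts. Some of the 36 thus entered only through other regions, and counts against the cortex are in part a description. In the striatum against the hippocampus, 4 were higher and 29 lower with a median of −1.69 (72.0% of all genes), and in the striatum against the cortex 10 were higher and 9 lower with a median of 0.17 (73.7% of all genes). Vat1l was among the 4 that were higher in the striatum than in the hippocampus, by 2.21 ± 0.12 (adjusted p = 1.91e-20).

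In the striatum, r with Ttr was 0.65 (Folr1) to 0.87 (Kl). Kcnj13, Aqp1, Cldn2 and Sostdc1 were tested there only because Shank3-HT replicate 5, the sample with the most Ttr, lifted their mean to 10, so their r is a description. None of the 9 passed (0% of 16481 genes did, 2666 had an unadjusted p under 0.05, and the 9 had adjusted p of 0.0753 to 0.211), and the genes closest to Ttr were Smo (r = 0.91), Lats2 (r = 0.88), Tapbp (r = 0.87), Klhdc7a (r = 0.86) and Fzd7 (r = 0.86), none of which passed either. Spearman's rho of the members was 0.389 to 0.854 in the same samples. Without Shank3-HT replicate 5, the members' median r fell from 0.785 to 0.543, with a range of 0.181 to 0.877, so the striatal relation rested in large part on 1 sample. Kl kept r = 0.85 without the 2 samples farthest from the median of Ttr (Shank3-HT replicate 5 and WT replicate 4).

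In the cortex, 4 members other than Ttr were abundant enough to test. Clic6 had r = 0.60 (adjusted p = 0.468) and rho = 0.775 (adjusted p = 0.488), Kl r = 0.48 (adjusted p = 0.559), Enpp2 r = −0.03 (adjusted p = 0.984) and Kcnj13 r = −0.08 (adjusted p = 0.957). None passed, 0% of 16506 genes did, and 1572 genes had an unadjusted p under 0.05. Pairs of the 10 genes ranged from r = −0.554 to 0.860. The closest genes to Ttr there were Arhgef10 (r = 0.86), A330015K06Rik (r = 0.83), Svip (r = 0.82), Rapgef3 (r = 0.81) and Cnot10 (r = 0.79), none of which passed (adjusted p of 0.330 to 0.444).

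Other cell types were followed beside Ttr by the summed level of marker lists, with 21 correlations adjusted together over 7 lists and 3 regions. The 16 ependymal markers, of ciliated cells that line the ventricles, had r = 0.78 with Ttr in the cortex (adjusted p = 0.00451; rho = 0.718, adjusted p = 0.0371; r = 0.71 without the 2 farthest samples). Their cortical sums were 293 to 351 in WT, 278 to 410 in Shank3-HT and 280 to 419 in Shank3-HM samples, with no marker at 0 in all samples, against 1423 to 2527 in the hippocampus and 899 to 2065 in the striatum. Only 8 of the 16 had a cortical mean of at least 10 normalized counts, and Foxj1 alone had a cortical median of 95.8. In the hippocampus the ependymal r was 0.58 (permutation p, adjusted, 0.0925). The 14 leptomeningeal markers had r = −0.0042 with Ttr in the hippocampus (permutation p, adjusted, 0.988), where their sums were 2873 to 7587, the oligodendrocyte markers r = −0.27 (adjusted p = 0.464), the 10 endothelial markers r = 0.40 (adjusted p = 0.264), the 12 thalamic and habenular markers r = −0.18 (adjusted p = 0.584) and the neuronal markers r = −0.29 (adjusted p = 0.429). The sum of the 38 further choroid plexus genes had r = 0.84 (adjusted p = 0.00189). Outside the hippocampus, the largest of the others were r = 0.69 for those 38 genes in the striatum (−0.0020 without the 2 farthest samples), 0.64 for oligodendrocyte markers in the cortex, 0.58 for leptomeningeal and 0.55 for thalamic and habenular markers in the striatum, with adjusted permutation p of 0.0770 to 0.1004. Striatum Shank3-HT replicate 5 had the highest striatal sum of leptomeningeal (1861), endothelial (9102) and thalamic and habenular (4441) markers and the lowest of neuronal markers (182332). Hippocampus WT replicate 4, the highest for every member, likewise had the highest hippocampal sum of ependymal (2527) and endothelial (8569) markers and the lowest of neuronal markers (275884). The part of these cells in the levels of either sample was not tested. Whether ependymal cells had a part in the members' levels was not tested.

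The amount of each member that came with Ttr was read as the slope of a Theil–Sen line of normalized counts on Ttr over the 15 hippocampal samples. Per 1000 normalized counts of Ttr, Enpp2 gained 488 (95% interval 453 to 529), Kl 42.7 (40.05 to 47.8), Clic6 25.7 (23.2 to 27.7) and Kcnj13 9.20 (7.51 to 10.4). Smaller gains were found for Cldn2 with 7.16 (5.92 to 8.08), Folr1 with 6.92 (6.30 to 7.63), Aqp1 with 5.50 (5.19 to 6.43), Sostdc1 with 5.04 (4.26 to 6.02) and Otx2 with 4.44 (3.93 to 5.36). The intervals of these 5 overlapped in part, and none of the 9 slopes rested on 1 sample, as leaving out each in turn kept, for example, Enpp2 between 486 and 509 and Kl between 42.3 and 43.5.

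Striatum Shank3-HT replicate 5 had no part in those lines. Its excess over the median of the other 14 striatal samples, per 1000 normalized counts of Ttr, was 529 for Enpp2, 46.7 for Kl, 23.5 for Clic6, 8.56 for Kcnj13, 7.15 for Folr1, 6.32 for Cldn2, 5.31 for Aqp1, 5.28 for Sostdc1 and 5.09 for Otx2. The ratios of these values to the hippocampal slopes ran from 0.882 (Cldn2) to 1.15 (Otx2), and 8 of the 9 excesses lay within the 95% interval of the slope, with that of Enpp2 just above it. The 9 genes were therefore present in this striatal sample in nearly the same proportions to Ttr as in the hippocampus, including Clic6, whose excess stood on a striatal median of 462. Of the 5 abundant further choroid plexus genes, Car12 had an excess of 6.15 where the hippocampal slope was 13.5 (10.5 to 16.7). Vat1l had one of 15.1 where the slope was 11.4 (8.29 to 14.8). In the other 14 striatal samples, Car12 ranged from 1498 to 2020 and Vat1l from 2933 to 4556, too widely for these gaps to be read. Ace (24.2 and 26.4), Atp2b3 (16.3 and 16.5) and Igf2 (41.6 and 46.9) lay within the intervals. These were 22.3 to 30.2, 8.37 to 25.8 and 2.18 to 71.7, and those of Atp2b3 and Igf2 are too wide to tell much.

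**Figure D3:**
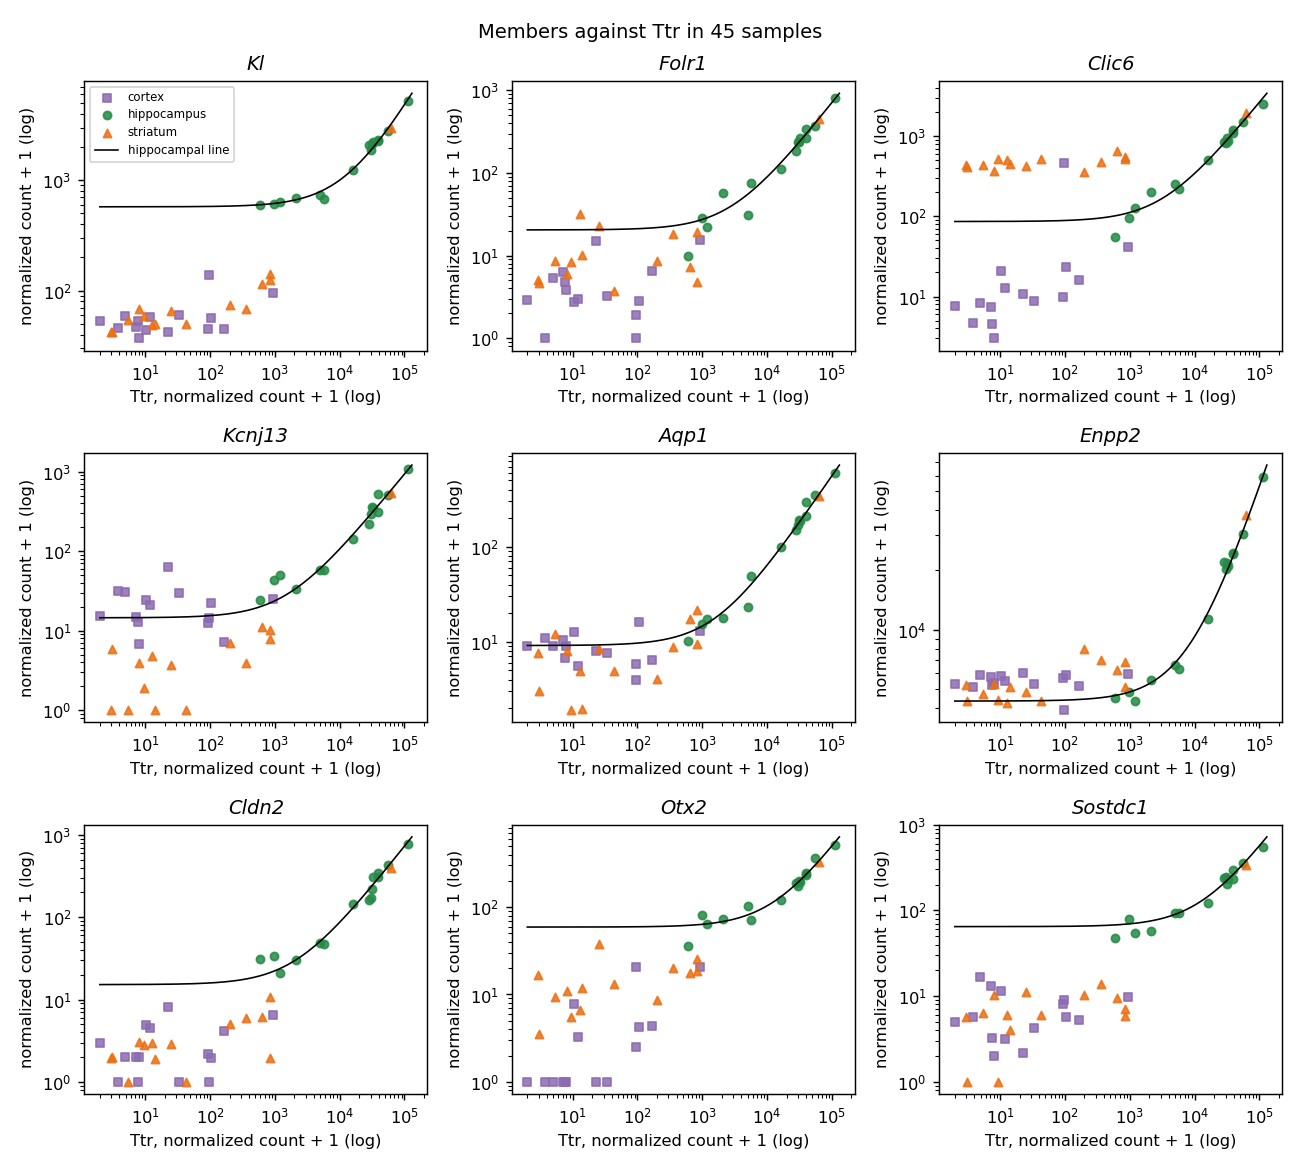
Normalized count + 1 of the 9 other members against that of Ttr, both on log axes, in the 45 samples (squares cortex, circles hippocampus, triangles striatum), with the line fitted to the hippocampal samples. Circles follow the line, the triangle of striatum Shank3-HT replicate 5 (Ttr of 62259) lies close to it in each panel, and cortical and other striatal points lie at levels that differ by gene.

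The same lines gave the level that each gene would have in a hippocampal sample with Ttr at 0. Ranges in brackets are this level at the limits of the slope's 95% interval. They hold the error of the slope only and are not 95% intervals of the level. The level was 574 normalized counts for Kl (489 to 599), against a median of 51.6 in the cortex and 61.4 in the 14 striatal samples, so most of the hippocampal floor of Kl was not shared with Ttr. It was 85.2 for Clic6 (56.8 to 126), between the cortical median of 8.72 and the striatal 462. Sostdc1 was at 63.7 (44.0 to 71.4) against 4.72 in the cortex and 5.20 in the striatum, and Otx2 at 58.1 (31.8 to 75.4) against 0 and 11.6. Aqp1, by contrast, was at 8.13 (−7.09 to 10.04), with a cortical median of 7.92 and a striatal one of 6.76. Enpp2 was at 4351 (3922 to 5381), with a cortical median of 5499 and a striatal one of 5142. Kcnj13 was at 13.5 (4.90 to 34.8), with 19.8 in the cortex and 2.92 in the striatum, Folr1 at 19.5 (3.57 to 24.8) with 2.26 and 7.42, and Cldn2 at 14.2 (7.58 to 26.9) with 1.03 and 1.84.

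**Figure D4:**
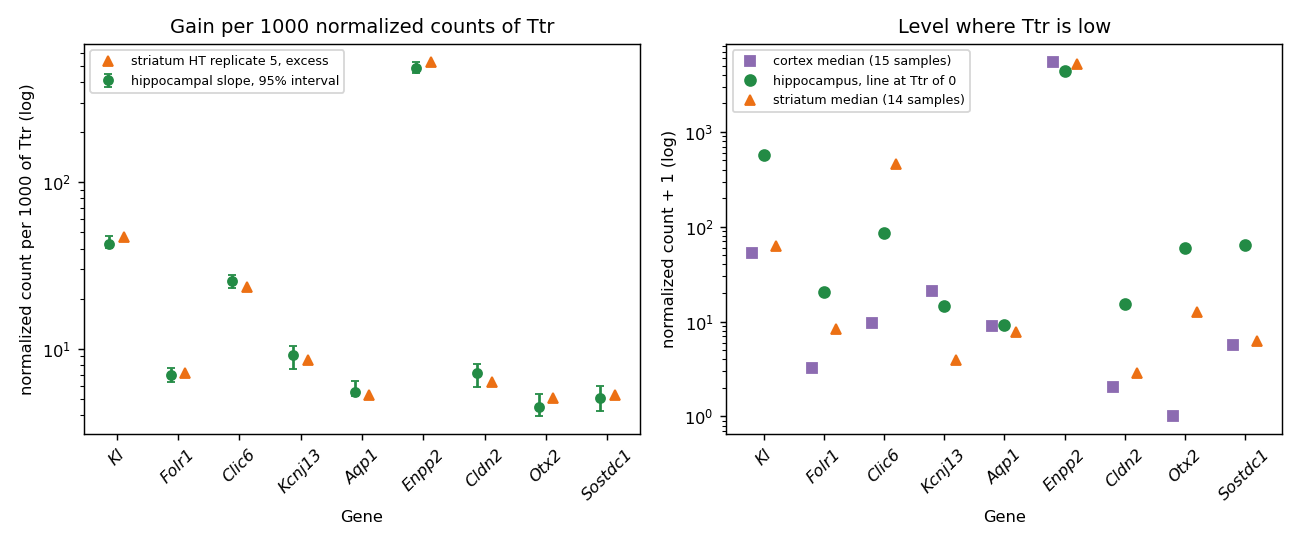
Left, gain of each gene per 1000 normalized counts of Ttr on a log axis, as the hippocampal slope with its 95% interval (circles) and the excess in striatum Shank3-HT replicate 5 (triangles), from 4.44 and 5.09 for Otx2 to 488 and 529 for Enpp2. Right, normalized count + 1 on a log axis where Ttr is low, as the median of 15 cortical samples (squares), the hippocampal line at Ttr of 0 (circles) and the median of 14 striatal samples (triangles); Kl is highest in the hippocampus and Clic6 in the striatum.

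Among cortical samples and the other striatal samples, Ttr was too low for most members to be read this way. In cortex Shank3-HT replicate 3, with Ttr at 932, Kl lay 43.6 above the cortical median where the hippocampal slope gives 39.4, and Clic6 31.3 where it gives 23.7. Folr1 lay 12.2 above where the slope gives 6.38, Otx2 19.4 where it gives 4.09, and Kcnj13 4.32 where it gives 8.48. This sample also had the highest oligodendrocyte sum of the cortex (114961), an ependymal sum of 410 and a neuronal sum of 352131 (cortical medians 83993, 328 and 372501). The part of these cells in its levels was not tested. For Enpp2 the excess was 450 and the slope gives 450, but cortical samples with little Ttr departed as far, with 551 in WT replicate 3 where the slope gives 5.20 and −1580 in Shank3-HM replicate 2 where it gives 40.7, so that nothing can be read from Enpp2 at this level of Ttr. The same holds for other members, as Kl lay 86.7 above in Shank3-HM replicate 2 where the slope gives 3.56, Otx2 19.5 in the same sample where it gives 0.370, and Folr1 11.7 in WT replicate 3 where it gives 0.0737. In striatum WT replicate 4 and Shank3-HT replicate 2, with Ttr at 840 and 839, the slope gives 34.8 for Kl, and Kl lay 59.9 and 76.4 above the striatal median. In the same samples Enpp2 lay 0 and 1740 above it where the slope gives 398. The Clic6 of cortex Shank3-HM replicate 2 lay 448 above the cortical median, where its Ttr of 94.4 gives 2.14.

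Samples of the same genotype and number were also compared between regions, although it is not known that they came from 1 mouse. Ttr in the striatum and cortex had r = 0.62 over 15 samples (permutation p = 0.0126, adjusted over 3 pairs of regions 0.0379; rho = 0.600, p = 0.0212, adjusted 0.0635; r = 0.60 without the 2 farthest samples). For hippocampus and cortex r was 0.24 (permutation p = 0.399, adjusted 0.399) with rho = 0.461 (adjusted p = 0.127), although r was 0.76 without the 2 samples farthest from the hippocampal median, so this value rested on those samples. For hippocampus and striatum r was 0.35 (permutation p = 0.198, adjusted 0.297) with rho = 0.329 (adjusted p = 0.232), and 0.44 without the 2 farthest samples. By r, 1 of the 3 pairs of regions passed, and by rho none did.

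The last comparison asked whether the genotype changed these genes. In the hippocampus, Ttr in Shank3-HT against WT mice differed by −2.24 ± 1.18 on the log2 scale (limma, 95% interval −4.72 to 0.25, adjusted p = 0.926), and the 5 samples of each genotype overlapped, with 3 of the 5 Shank3-HT samples at 1181 or below. No member passed (0 of 10, where 0.00603% of all genes did), and 1, Folr1, had an unadjusted p under 0.05, where 5.26% of all genes did. The 10 estimates ran from −2.24 to −0.71 with a median of −1.33, and the median of all genes was 0.01. As the 10 genes moved together over the samples, these are not 10 separate observations. The estimate for Ttr ran from −3.01 (without Shank3-HT replicate 2) to −1.55 (without WT replicate 4) when single samples were left out, and without WT replicate 4 the 10 estimates were −1.55 to −0.28 and 0 had an unadjusted p under 0.05. For Shank3-HM against WT mice, 0 of 10 passed (0 at an unadjusted p under 0.05; 0.00603% of all genes did), with estimates from −0.19 (Folr1) to 0.47 (Ttr). Without hippocampus WT replicate 2, the Shank3-HM estimate for Ttr turned to −0.29, and without WT replicate 4 it was 1.15.

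In the striatum, Ttr differed by 4.19 ± 2.05 in Shank3-HT against WT mice (95% interval −0.13 to 8.51, adjusted p = 0.689). Kcnj13, Aqp1, Cldn2 and Sostdc1 reached a mean of 10 in this region only through Shank3-HT replicate 5, which is in the group compared, so their estimates (1.62, 1.68, 2.01 and 2.39) are a description. Of the other 6 members, 0 passed, where 0.00607% of all genes did, and Enpp2 (0.86) had an unadjusted p under 0.05, where 7.43% of all genes did. Without that sample, the Ttr estimate was 2.295, 6 members were tested, 3 of their estimates were positive, and 0 had an unadjusted p under 0.05. For Shank3-HM against WT mice, the estimates of Kcnj13, Aqp1, Cldn2 and Sostdc1 (−0.20, 0.47, 0.35 and 1.16) are likewise a description. Of the other 6 members, 0 passed (0 at an unadjusted p under 0.05), where 0.182% of all genes did. Ttr was at 1.39 ± 2.05 (adjusted p = 0.942) and the others between −0.05 (Otx2) and 0.42 (Folr1).

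In the cortex, 5 members were tested, and 0 passed in Shank3-HT mice (0% of all genes did) and 0 in Shank3-HM mice (0.0121% did), with 0 at an unadjusted p under 0.05 in either. Ttr differed by 0.96 ± 1.38 in Shank3-HT mice and by 0.57 ± 1.38 in Shank3-HM mice (adjusted p = 0.963 for the latter). Without cortex Shank3-HT replicate 3, the Shank3-HT estimate was −0.26. Clic6 in Shank3-HM mice was 1.504 ± 0.92 (adjusted p = 0.882), with the 457 of replicate 2 among its 5 values, and 0.45 without that sample.

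Exact permutation tests of single genes, two-sided with 5 against 5 samples and a smallest possible p of 0.00794, gave p = 0.190 for hippocampal and 0.151 for striatal Ttr in Shank3-HT mice. Of the 60 such tests, Otx2 in cortical Shank3-HM mice had the smallest, with an exact p of 0.0476, not adjusted for the 60, as 4 of 5 WT samples were listed at 0 and 4 of 5 Shank3-HM samples were between 2.27 and 19.5. The genotype effect was also compared between regions in 1 limma fit. The Shank3-HT effect on Ttr in the striatum minus that in the hippocampus was 6.43 ± 2.502 (95% interval 1.37 to 11.5, adjusted p = 0.818). None of the 10 passed in any of the 6 such comparisons, where 0% of genes did for the 3 Shank3-HT ones and 0%, 0.0539% and 0.0718% for the Shank3-HM ones (hippocampus minus cortex, striatum minus cortex and striatum minus hippocampus). For the Shank3-HT difference between striatum and hippocampus, 6 of 10 had an unadjusted p under 0.05, where 5.60% of all genes did. Aqp1, Cldn2 and Sostdc1 are among these 6. Like Kcnj13, they reached a striatal mean of 10 only through Shank3-HT replicate 5, so their estimates with the striatum are a description. As the 10 genes moved together over the samples, they are not separate observations. Without striatum Shank3-HT replicate 5, where all 10 genes were at their striatal maximum, 1 of 10 had an unadjusted p under 0.05 and the Ttr difference was 4.53. Without hippocampus WT replicate 4, 4 of 10 did and it was 5.74, and without all 3 samples named at the outset 0 of 10 did and it was 3.845.

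**Figure D5:**
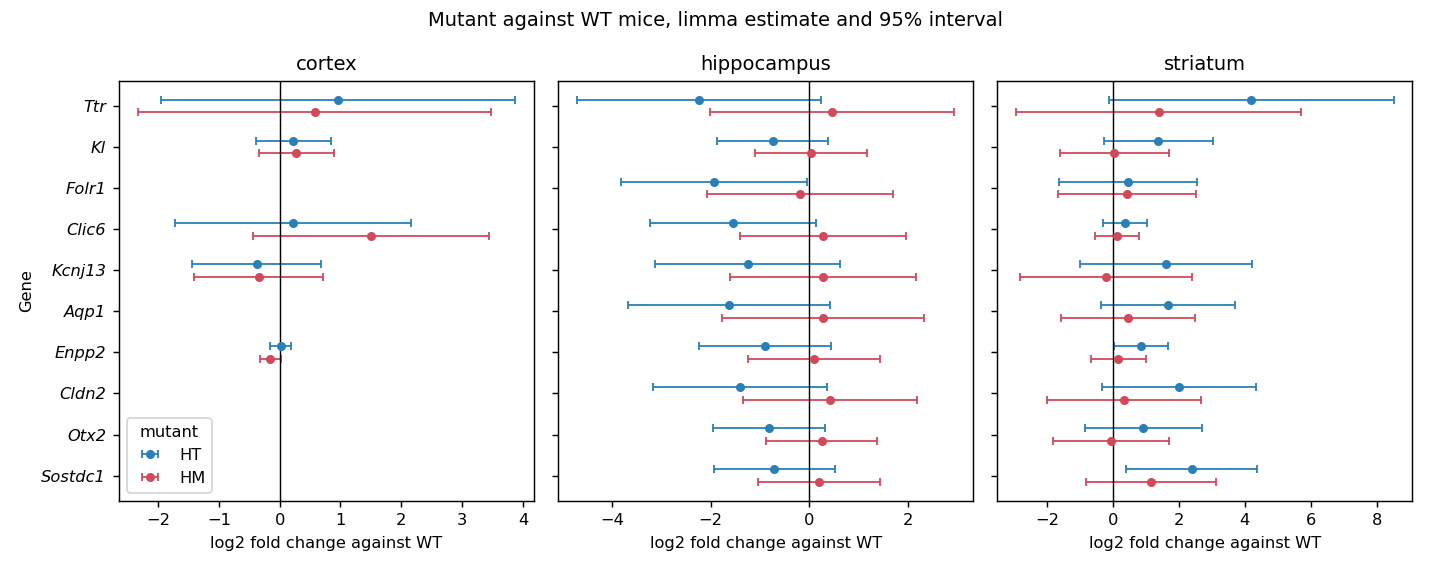
log2 fold change of the members against WT mice with its 95% interval (limma) in Shank3-HT (blue) and Shank3-HM (red) mice, by region; 5 members were tested in the cortex and 10 in the other regions. Hippocampal Shank3-HT estimates all lie below 0, from −2.24 to −0.71, and striatal ones above 0, from 0.37 to 4.19, with wide intervals, and none passed at an adjusted p of 0.05. In the striatum, Kcnj13, Aqp1, Cldn2 and Sostdc1 were tested only through Shank3-HT replicate 5, and without it 3 of 6 estimates were positive.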

How the data were processed

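Libraries were prepared with a stranded mRNA kit. The authors quantified transcripts with Salmon (version 1.1.0) with GC bias correction and imported them with tximport into DESeq2 (1.26.0 in R 3.6.2 per the submitters' processing notes, which also name GRCm38; the study's methods give other versions of both). The values the authors deposited are the resulting signal per gene, normalized counts (by DESeq2) of 18135 Ensembl genes in 45 samples. They are not whole reads: 14.4% to 41.4% of low values in a sample came within 0.05 of whole multiples of the step that fitted it best. At a fixed step 10% would by chance, and more at a step chosen as the best of many. No count model was therefore used, and depth is unknown.

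Symbols, coordinates and transcript lengths came from GENCODE M21 (18120 identifiers matched). Values were analysed as log2(value + 1) for genes with a mean of at least 10 with limma (3.58.1 in R 4.3.3, intensity trend, Benjamini–Hochberg adjustment at 0.05), as 1 fit of the 9 groups for regions and interactions and as 1 fit per region for genotypes. Likeness to Ttr was Pearson's r and Spearman's rho with two-sided permutation tests of 100000 resamples (Python 3.11.15, scipy 1.17.1). Single genes were also tested by exact permutation. Scripts were tested on simulated data. The members and gene lists were chosen with earlier results of these data known. All 10 members are named, with the 5 most abundant of 38 further choroid plexus genes and, per region, the 5 other genes with the largest r with Ttr. The study gives 5 mice per group for the 3 regions, which may be 15 mice in all. The region and interaction fits took the 45 samples as independent, since the labels do not tie samples to mice, so their p values cover the spread between these samples and may be off where regions share mice. Alternatives were another pseudocount (0.1), no filter or a mean of at least 100, quantile normalization, array weights, no intensity trend, a replicate block, WT mice only, only the groups compared, deviations from genotype means and leaving out each sample. Leaving out the 3 samples that stand apart, and each sample in the interaction fits, was added after seeing the data.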

Additional observations from a re-analysis of the deposited data

Results flagged for a closer look

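In 8 of 90 groups of 5 samples, 1 sample lay far from the other 4, with a gap of more than 0.71 of the range of its group on the log2(normalized count + 1) scale. Chance gives this in about 1 of 20 groups, and the 90 groups are not independent because the 10 genes moved together. Striatum Shank3-HT replicate 5 was the sample in 6 of the 8, with 2971 normalized counts of Kl, 453 of Folr1, 1927 of Clic6, 38085 of Enpp2, 329 of Otx2 and 334 of Sostdc1. Cortex Shank3-HM replicate 2 was highest for Kl, with 138. Otx2 was 1.52 in cortex WT replicate 4 and listed at 0 in the other 4 WT samples, a difference too small to read.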

How the results depend on the processing

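Depth is unknown, so the counting error of values near 0 cannot be given. With 5 mice per group, the intervals for genotype differed widely by gene and region. For striatal Ttr, that of Shank3-HM mice allows large changes either way (−2.93 to 5.70). That of Shank3-HT mice allows a large rise but no large fall (−0.13 to 8.51). For cortical Enpp2 in Shank3-HM mice it was narrow (−0.33 to 0.02). With a mean of at least 100, only 5 members were tested, and 5 passed for hippocampus against cortex, 2 for striatum against cortex and 4 for striatum against hippocampus. For Ttr-like genes in the striatum, 1 member (Kl, adjusted p = 0.0291) passed as deviations from the genotype means, and 0 to 1 when each sample was left out (1 without Shank3-HT replicate 4 or WT replicate 3, 4 or 5); the cause was not tested. The counts of members called between regions (10, 4 and 9, with those that entered through 1 region included) and between genotypes (0) were the same when each sample was left out.

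Directions that turned were all of values that did not pass. In WT mice only, Clic6 was −0.4446 in the striatum against the hippocampus, and against the cortex Enpp2 was −0.2313, Cldn2 −0.1579 and Sostdc1 −0.7435; Enpp2 was −0.0514 without the 3 samples that stand apart. Leaving out single samples gave −0.02222 to 0.3096 for Clic6 (striatum against hippocampus), and in striatum against cortex −0.3673 to 0.1653 for Aqp1, −0.02092 to 0.2393 for Enpp2 and −0.006296 to 0.4934 for Sostdc1. For Ttr against WT it gave −0.2617 to 1.629 (cortex, Shank3-HT), −0.174 to 1.234 (cortex, Shank3-HM) and −0.286 to 1.152 (hippocampus, Shank3-HM). In the cortex, r with Ttr ran from −0.2264 to 0.3209 for Enpp2 and from −0.1997 to 0.0851 for Kcnj13, which was 0.009883 without the 2 farthest samples. The cause of these turns was not tested.

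The labels do not say that the replicate number pairs samples, and not every same-numbered pair had deviations correlated above 0.1. Between regions, the median correlation was 0.0672 for equal numbers (over 0.1 in 16 of 45 pairs) and −0.0180 for unequal ones (5 of 180), which is a hint from the data, not the design, that the numbers are related. Between genotypes it was 0.0216 (7 of 45) and −0.00806 (21 of 180). With a replicate block, Ttr in the striatum against the cortex was 1.506 with an adjusted p of 0.0436, so that 5 members in place of 4 were called there, and the other counts of members called did not change.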
